A study of Mus musculus with 18 samples.

Results

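Bitter taste receptors are G protein-coupled receptors of the Tas2r family. The deposited tables hold 35 genes whose symbols start with Tas2r, out of 23063 genes, and all 35 were taken whatever their level. Expression was measured by RNA sequencing of sorted thymic epithelial cells: medullary cells of the hi gate (mTEChi), medullary cells of the lo gate (mTEClo) and cortical cells (cTEC). The 6 groups, with 3 libraries each, were Aire KO mTEChi, WT mTEChi, Aire KO mTEClo, WT mTEClo, Aire KO cTEC and WT cTEC. All mice were 6 to 8 weeks old, and every sample, WT included, carries the strain label of the Aire mutant line, B6.129S2-Airetm1.1Doi/J. The labels name neither the surface protein behind the lo and hi gates nor the mice or sorts behind each replicate. The p-values below therefore measure the spread between libraries, which may be technical.

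In taste buds a Tas2r receptor that binds a bitter compound activates the G protein gustducin (alpha subunit Gnat3, with Gnb3 and Gng13). The released subunits act on the phospholipase Plcb2, the inositol trisphosphate receptor Itpr3 opens, and the calcium-gated channel Trpm5 depolarises the cell. The same receptors and transducers are used by tuft cells, chemosensory epithelial cells of gut, airway and thymic medulla that need the transcription factor Pou2f3. Aire is the transcriptional regulator through which mature medullary cells express many genes of other tissues, and the series title contrasts genes induced by Aire with genes expressed independently of it.

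Depth was 4.54 to 18.1 Gb of aligned bases on genes, and replicates correlated at 0.971 to 0.995 across genes. A level of 0.1 RPKM (the deposited unit, in which reads are scaled by gene length and library size) stood for a mean coverage of 0.572 to 2.23 at each base of a bitter receptor gene. Values below that level rest on few reads. KO cTEC replicate 1 stood apart: it had 1130 RPKM of summed cTEC markers against 2020 and 1400 in the other KO cTEC libraries, and 206 RPKM of summed mTEChi markers against 111 and 83.1. It also had 179 RPKM of summed fibroblast markers, against 400 and 407 RPKM. WT cTEC replicate 2 stood above its group in the bitter receptors and the tuft cell markers described below. Aire itself had 1130, 1000 and 1090 RPKM in KO mTEChi, against 658, 681 and 693 RPKM in WT mTEChi. The deposited value covers the whole gene model, including sequence outside the deleted part, so it does not check the genotype labels.

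The members lie in few places. On chromosome 6 stand 33 of them, while Tas2r119, the mouse counterpart of human TAS2R1, lies at chr15:32177289-32178294 and Tas2r134 at chr2:51627511-51628407 (build mm10). Chromosome 6 holds 24 members in a run of 1430 kb at chr6:131629892-133055793. Tas2r137, Tas2r108 and Tas2r138 share a run of 122 kb at chr6:40491238-40613310. Tas2r139, Tas2r144, Tas2r143, Tas2r135 and Tas2r126 share a run of 295 kb at chr6:42140936-42435461, and Tas2r118 stands alone at chr6:23969161-23970060. Spans of 34 of the 35 are multiples of 3, Tas2r119 being the exception, so the deposited values cover coding length without UTRs. Spans of 34 equal the RefSeq GRCm38.p6 models, and Tas2r107 starts further upstream in RefSeq. No GENCODE gene on either strand overlapped a member. Near-identical stretches were few: in the GENCODE transcripts 4 members share any run of 50 bases with another, Tas2r123 and Tas2r110 for 7.66% and 7.45% of their runs, and Tas2r109 and Tas2r117 for 5.1% and 4.33%. Reads from those stretches cannot be assigned to 1 gene with certainty.

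RefSeq promoter windows (GRCm38.p6) were available for 31 members and reach from 250 bases before to 50 bases after the start of the model. In 29 of the 31 the model starts at ATG, so that most of the window precedes the start codon. Each window was searched on both strands for the octamer ATGCAAAT, the element bound by POU-domain factors, the class to which Pou2f3 belongs. The motif was chosen after a member's window had been read. It occurred in 7 of 31 member windows and in 1.74% of all 32851 promoter windows in the table. The shorter form ATGCAAA, contained in every octamer, occurred in 12 of 31 and in 4.63% of all windows. All windows were not matched to the member windows in base content or in starting at ATG, so the shares are not like for like. Matches were spread unevenly: outside the large run 6 of 11 windows held the octamer and 10 of 11 the shorter form, and inside it 1 of 20 and 2 of 20 did. A match is a description of the letters, not a site of binding. The stretches around the 7 octamers are shown, 5′ to 3′ on the strand of the gene and with the octamer, in either orientation, in capitals, because members in separate runs and of very different level hold the same letters. The octamers of 6 members lie 124 to 194 bases before the start codon. That of Tas2r107 lies 236 bases before the start of its RefSeq model, which does not begin with ATG. No GENCODE exon falls within the stretches.
Tas2r108 (chr6:40493406-40493493, + strand): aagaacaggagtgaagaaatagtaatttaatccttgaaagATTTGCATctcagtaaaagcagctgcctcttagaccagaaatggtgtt
Tas2r137 (chr6:40491006-40491093, + strand): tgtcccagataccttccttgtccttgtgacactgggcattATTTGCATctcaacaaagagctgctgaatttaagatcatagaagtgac
Tas2r118 (chr6:23970137-23970224, - strand): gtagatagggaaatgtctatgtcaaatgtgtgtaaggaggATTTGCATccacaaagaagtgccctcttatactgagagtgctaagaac
Tas2r107 (chr6:131660338-131660399, - strand): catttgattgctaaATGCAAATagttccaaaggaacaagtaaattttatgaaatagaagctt
Tas2r126 (chr6:42434301-42434388, + strand): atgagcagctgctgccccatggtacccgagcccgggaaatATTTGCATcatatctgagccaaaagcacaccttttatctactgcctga
Tas2r144 (chr6:42215131-42215218, + strand): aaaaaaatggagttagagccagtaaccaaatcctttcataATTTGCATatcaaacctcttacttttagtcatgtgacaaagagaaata
Tas2r135 (chr6:42405346-42405433, + strand): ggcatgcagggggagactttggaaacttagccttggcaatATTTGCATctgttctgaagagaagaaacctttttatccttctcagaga

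In 6 of the 7 the octamer reads ATTTGCAT on the strand of the gene, and Tas2r107, the only match in the large run, has it the other way round. Tas2r108 had the highest mean level of the family over the 18 libraries (8.82 RPKM), while Tas2r144 and Tas2r135 were near the bottom (0.17 and 0.156 RPKM). Tas2r123, Tas2r113, Tas2r115, Tas2r109 and Tas2r105, also among the leading members by level, have no match in their windows, and Tas2r117 has no window.

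The family as a whole was expressed most in mTEClo, and above all in KO mTEClo. Summed over the 35 members, the level was 11.4, 15.5 and 20.1 RPKM in KO mTEChi and 21.1, 43.5 and 16.7 RPKM in WT mTEChi. It was 334, 251 and 246 RPKM in KO mTEClo and 103, 173 and 73.5 RPKM in WT mTEClo. In KO cTEC it was 113, 48.9 and 45 RPKM, and in WT cTEC 6.2, 27.4 and 7.8 RPKM. Libraries of KO and WT did not overlap in mTEClo or in cTEC and overlapped in mTEChi. KO mTEClo had the highest mean for 33 of the 35 members, as it had for 11.5% of all tested genes. The exceptions were Tas2r139, whose highest mean was in WT mTEChi, and Tas2r114, whose highest mean was in WT mTEClo. In bulk samples fewer cells of a type and less RNA per cell cannot be told apart.

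**Figure D1:**
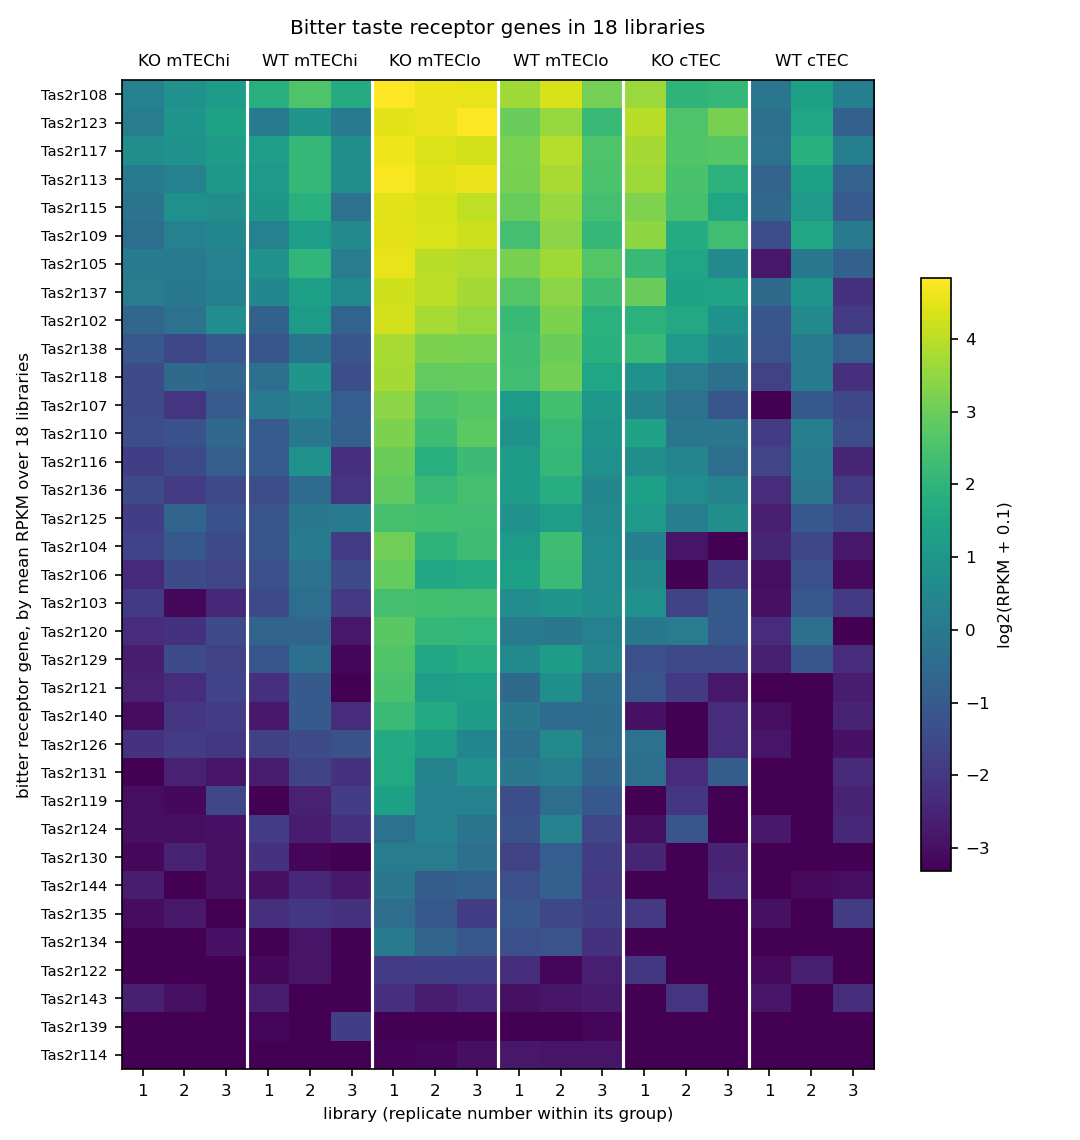
Level of each of the 35 bitter receptor genes (rows, by mean RPKM) in each of the 18 libraries (columns, by group), as colour on a scale of log2(RPKM + 0.1). The KO mTEClo group has the highest mean for 33 members, and KO cTEC replicate 1 and WT cTEC replicate 2 are brighter than the other libraries of their groups.

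At 0.1 RPKM or more in every library, 19 members were detected in KO mTEChi, 21 in WT mTEChi, 32 in KO mTEClo, 31 in WT mTEClo, 20 in KO cTEC and 12 in WT cTEC. Of all genes in the tables, 68.9%, 81.4%, 67.8%, 68.0%, 65.3% and 64.7% were so detected in the same groups. WT mTEChi thus had the widest detection over all genes, but not of bitter receptors. All 35 were above 0 in at least 1 library, and 18 were at 0 in at least 1. The rank order of the members hardly moved between groups: Spearman's rho over the 35 group means was 0.90 to 0.98, a description over points that share their libraries. The 8 leading members, Tas2r108, Tas2r123, Tas2r117, Tas2r113, Tas2r115, Tas2r109, Tas2r105 and Tas2r137, took 57.1% to 77.2% of the summed level in every library. Their means over 18 libraries were 5.2 to 8.82 RPKM.

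Tas2r108, whose product in the mouse responds to denatonium, had 1.11, 1.64 and 2.14 RPKM in KO mTEChi and 3.36, 5.93 and 3.16 RPKM in WT mTEChi. In mTEClo it had 28.5, 24.3 and 22.9 RPKM in KO and 12.6, 20 and 8.62 RPKM in WT. In cTEC it had 12, 3.99 and 4.23 RPKM in KO and 0.828, 2.41 and 1.04 RPKM in WT. The genotypes did not overlap in any of the 3 populations, and KO was the lower in mTEChi and the higher in mTEClo and cTEC. Tas2r123 had 1.01, 1.84 and 2.56 RPKM in KO mTEChi and 0.957, 1.8 and 0.913 RPKM in WT mTEChi. It had 22.5, 24.2 and 28.1 RPKM in KO mTEClo and 7.76, 11.8 and 4.48 RPKM in WT mTEClo. It had 15.7, 5.98 and 8.89 RPKM in KO cTEC and 0.714, 2.7 and 0.482 RPKM in WT cTEC. Of the 8 leading members it was the only one whose mean in mTEChi was higher in KO, with overlapping libraries. Tas2r117 had 1.59, 1.69 and 2.17 RPKM in KO mTEChi and 2.21, 4.2 and 1.56 RPKM in WT mTEChi. In mTEClo it had 24.8, 21.2 and 19.9 RPKM in KO and 8.97, 15 and 5.97 RPKM in WT. In cTEC it had 13.2, 6.02 and 6.31 RPKM in KO and 0.727, 3.51 and 1.05 RPKM in WT. Its genotypes overlapped in mTEChi alone.

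Tas2r113 had 0.906, 1.1 and 1.96 RPKM in KO mTEChi and 2.01, 4.26 and 1.55 RPKM in WT mTEChi. It had 27.1, 22.7 and 23.9 RPKM in KO mTEClo and 8.78, 13.5 and 5.72 RPKM in WT mTEClo. It had 12.8, 5.5 and 3.68 RPKM in KO cTEC and 0.502, 2.37 and 0.49 RPKM in WT cTEC. As for Tas2r117, the genotypes overlapped in mTEChi and nowhere else. Tas2r115 had 0.776, 1.62 and 1.52 RPKM in KO mTEChi and 1.91, 3.53 and 0.719 RPKM in WT mTEChi. Its levels were 22, 20.2 and 16.5 RPKM in KO mTEClo and 7.63, 11.8 and 5.16 RPKM in WT mTEClo. In cTEC they were 9.42, 5.41 and 2.75 RPKM in KO and 0.558, 2.05 and 0.409 RPKM in WT. The lowest KO cTEC library lay just above the highest WT cTEC library. Tas2r109 had 0.677, 1.11 and 1.23 RPKM in KO mTEChi and 1.09, 2.28 and 1.32 RPKM in WT mTEChi. It had 22.7, 20.7 and 18.6 RPKM in KO mTEClo and 5.13, 10.5 and 4.2 RPKM in WT mTEClo. It had 10.8, 3.23 and 4.91 RPKM in KO cTEC and 0.285, 2.84 and 0.918 RPKM in WT cTEC. The gap between the genotypes was wide in mTEClo and narrow in cTEC.

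Tas2r105, the mouse receptor for cycloheximide, had 0.919, 0.911 and 1.1 RPKM in KO mTEChi and 1.67, 4.07 and 1 RPKM in WT mTEChi. It had 23.8, 16 and 14.4 RPKM in KO mTEClo and 8.91, 12.8 and 6.2 RPKM in WT mTEClo. It had 4.45, 2.69 and 1.4 RPKM in KO cTEC and 0.044, 0.877 and 0.485 RPKM in WT cTEC. Its genotypes overlapped in mTEChi and not elsewhere, and of the 8 leading members it had the lowest mean in cTEC of either genotype. Tas2r137 had 0.995, 0.879 and 1.06 RPKM in KO mTEChi and 1.3, 2.33 and 1.38 RPKM in WT mTEChi. Its levels were 19.1, 16.2 and 13.2 RPKM in KO mTEClo and 6.23, 10.5 and 4.82 RPKM in WT mTEClo. In cTEC they were 7.81, 2.52 and 2.62 RPKM in KO and 0.609, 1.77 and 0.125 RPKM in WT. Like Tas2r108, its neighbour on the chromosome, it had no overlap between genotypes in any population.

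**Figure D2:**
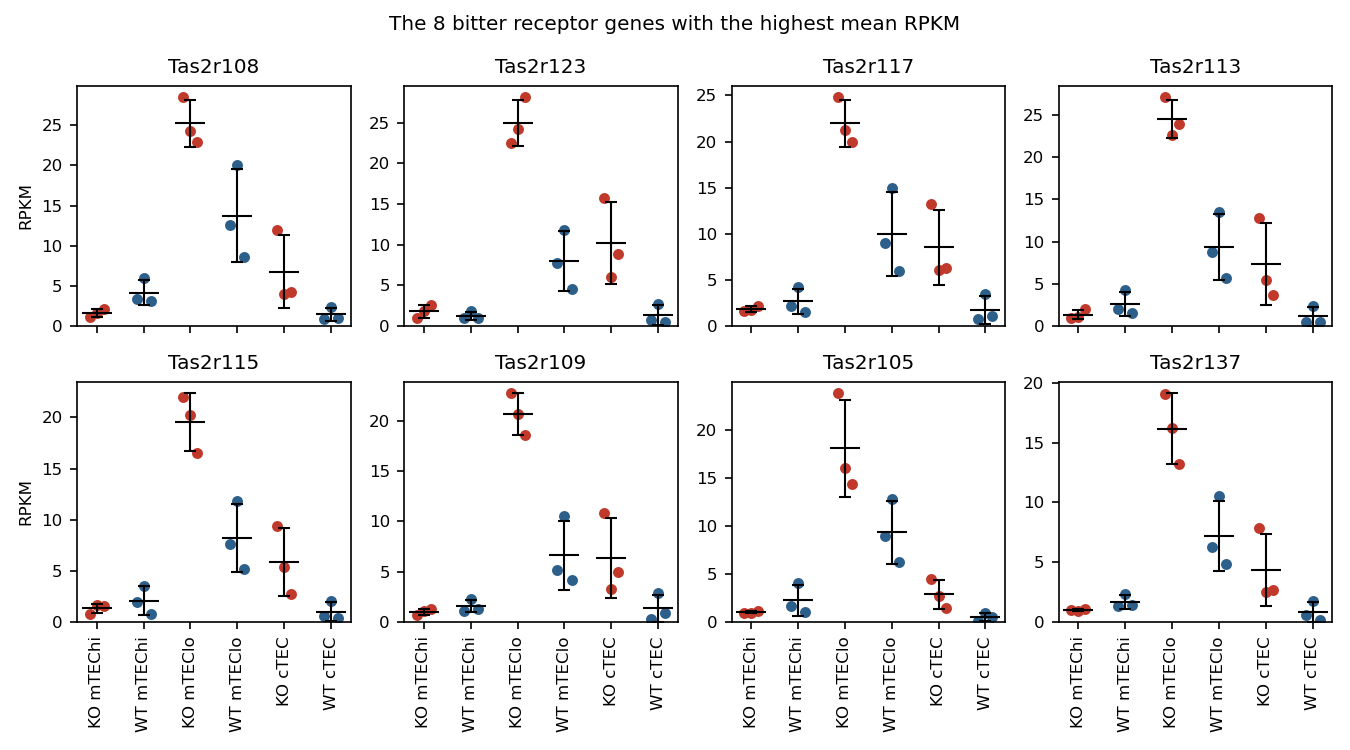
RPKM of the 8 leading bitter receptor genes in each library (points, red for KO and blue for WT) by group, with the group mean and SD over 3 libraries as black bars. In each panel the KO mTEClo libraries are the highest, between 13.2 and 28.5 RPKM, and the mTEChi and WT cTEC libraries are below 6 RPKM.

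Aire KO mTEClo had more bitter receptor transcript than WT mTEClo. All 33 tested members had a positive fold change, although Tas2r122 and Tas2r143 pass the filter on low values through KO mTEClo only, and 8 passed the test (limma on log2(RPKM + 0.1), Benjamini-Hochberg adjusted p under 0.05), none in the other direction. Over all genes tested 7.93% were called higher and 8.04% lower. The members' median log2 fold change was 1.22, against -0.04 over all genes. Among the 31 members at 0.1 RPKM or more in both groups the ratio of mean RPKM was 1.52 (Tas2r135) to 5.26 (Tas2r120), with a median of 2.43. Every KO library was above every WT library for 25 of the 35, as for 17.2% of all tested genes, and Tas2r114, below 0.05 RPKM in all 6 libraries, was the other way round. In the same libraries the summed tuft cell markers were at 2020 to 2230 RPKM in KO mTEClo, against 625 to 1430 RPKM in WT mTEClo, and dendritic cell and macrophage markers at 69.4 to 138 RPKM, against 25.9 to 33.1 RPKM. Their part in the result was not tested.

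The members called were mostly of low or middle level. Tas2r140 had 4.58, 3 and 2.18 RPKM in KO mTEClo, against 0.868, 0.619 and 0.633 RPKM in WT mTEClo. Tas2r120 had 6.67, 4.24 and 4.09 RPKM in KO mTEClo, against 0.914, 0.854 and 1.09 RPKM in WT mTEClo. Both were clearly separated, with log2 fold changes of 2.01 ± 0.434 (SE, adjusted p = 0.0059, limma) for Tas2r140 and 2.25 ± 0.645 (adjusted p = 0.027, limma) for Tas2r120. Tas2r125 had 5.43, 5.1 and 4.98 RPKM in KO mTEClo, against 1.67, 2.29 and 1.32 RPKM in WT mTEClo. Tas2r121 had 5.59, 2.3 and 2.43 RPKM in KO mTEClo, against 0.605, 1.56 and 0.688 RPKM in WT mTEClo. The KO libraries of Tas2r125 lay close together, and KO replicate 1 of Tas2r121 stood above the others. Their log2 fold changes were 1.53 ± 0.414 (adjusted p = 0.02, limma) for Tas2r125 and 1.74 ± 0.544 (adjusted p = 0.04, limma) for Tas2r121.

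Tas2r119, on chromosome 15, had 2.41, 1.13 and 1.11 RPKM in KO mTEClo, against 0.285, 0.656 and 0.374 RPKM in WT mTEClo. Tas2r130 had 0.971, 1 and 0.694 RPKM in KO mTEClo, against 0.201, 0.44 and 0.177 RPKM in WT mTEClo. Tas2r134, on chromosome 2, had 0.91, 0.515 and 0.361 RPKM in KO mTEClo, against 0.3, 0.328 and 0.131 RPKM in WT mTEClo. None of the 3 overlapped, though Tas2r134 came close. The log2 fold changes were 1.59 ± 0.496 for Tas2r119 (adjusted p = 0.04, limma), 1.46 ± 0.328 for Tas2r130 (adjusted p = 0.0074, limma) and 0.95 ± 0.267 for Tas2r134 (adjusted p = 0.024, limma). Members on chromosomes 2, 6 and 15 were thus among those called. Of the 8 leading members only Tas2r123 passed (1.73 ± 0.52, adjusted p = 0.034, limma). Tas2r109 just missed the threshold (1.74 ± 0.58, adjusted p = 0.053, limma), and the other 6 leading members had log2 fold changes of 0.95 to 1.47. The count of 8 was not stable: it was 1 with 0.01 RPKM added before the logarithm, 23 with 1 RPKM added and 5 with no filter on low values. It was 2 without KO mTEClo replicate 1 or 2 or WT mTEClo replicate 3, 3 without KO mTEClo replicate 3 or WT mTEClo replicate 1, 14 without KO cTEC replicate 1 and 13 without WT cTEC replicate 2. All 33 members stayed positive under quantile normalization and when centred on housekeeping genes.

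**Figure D3:**
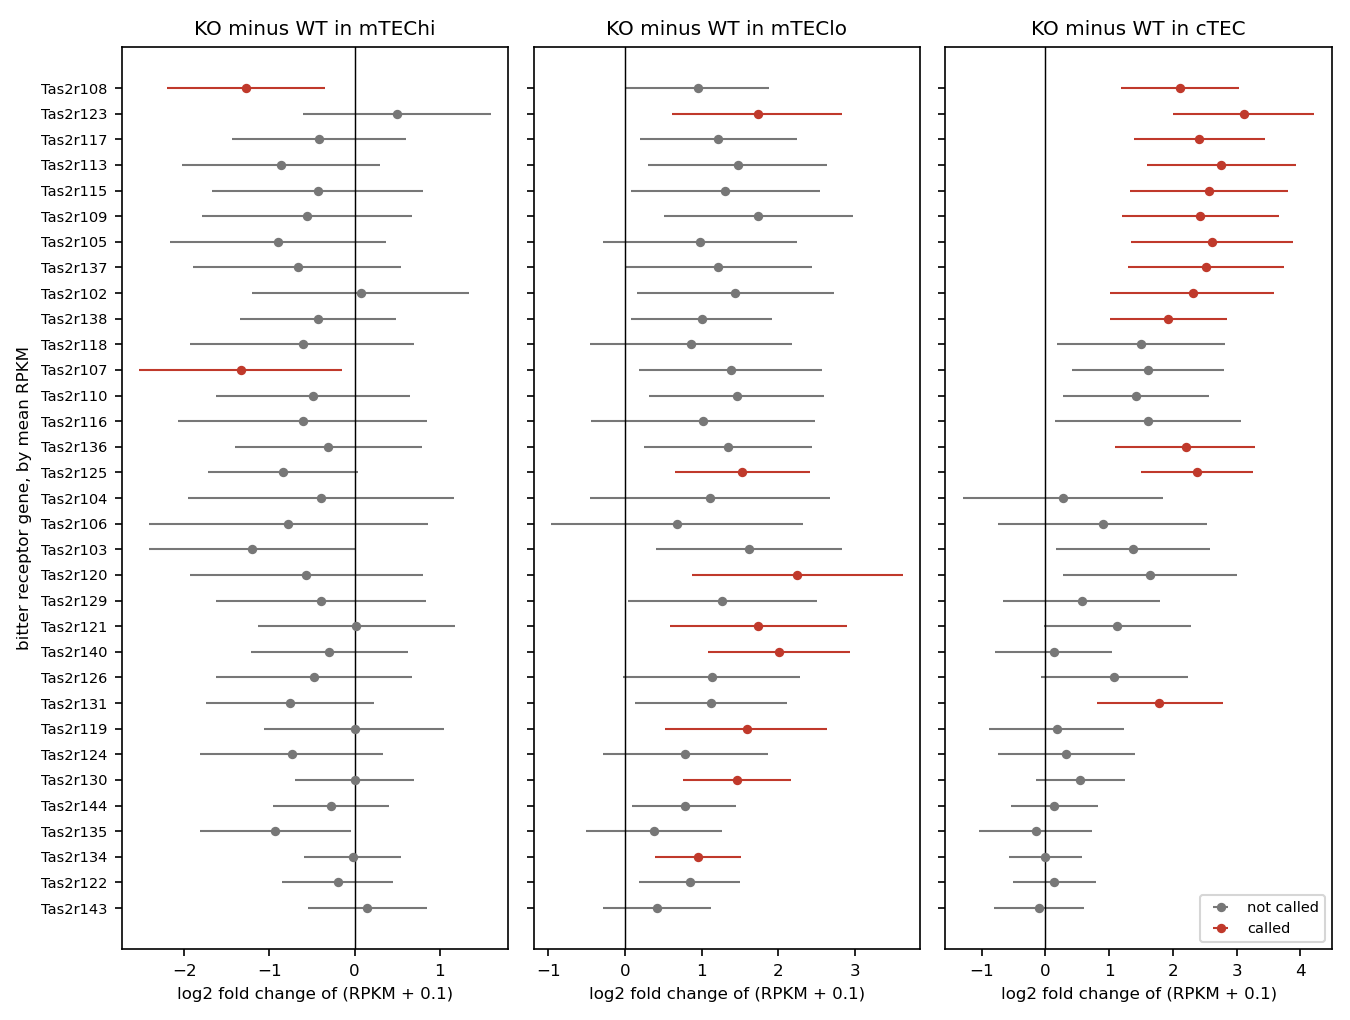
Log2 fold change of RPKM + 0.1, KO minus WT, with its 95% confidence interval from limma for the 33 tested bitter receptor genes (rows, by mean RPKM) in mTEChi, mTEClo and cTEC; red marks genes called over all tested genes. The points lie mostly left of 0 in mTEChi, right of 0 for all 33 in mTEClo, and far right of 0 for the upper rows in cTEC.

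Aire KO cTEC also had more bitter receptor transcript than WT cTEC, with 13 members called higher and none lower. Over all genes tested 13.3% were called higher and 6.76% lower. The median log2 fold change of the 33 was 1.5, against -0.01 over all genes, and the ratio of mean RPKM for the 21 members at 0.1 RPKM or more in both groups was 1.53 to 7.84, with a median of 4.54. The 13 called were the 8 leading members together with Tas2r102, Tas2r138, Tas2r136, Tas2r125 and Tas2r131. They were also the 13 of 35 whose libraries did not overlap, as was so in this direction for 15.2% of all tested genes. In these libraries the summed tuft cell markers were at 542 to 1230 RPKM in KO cTEC, against 73.5 to 214 RPKM in WT cTEC, and dendritic cell and macrophage markers at 110 to 152 RPKM, against 24.8 to 63.5 RPKM. Their part in the result was not tested.

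Tas2r123 rose most, by 3.11 ± 0.52 on the log2 scale (SE, adjusted p = 0.00052, limma), and the other 7 leading members rose by 2.11 to 2.76. Tas2r138, the counterpart of the human receptor for phenylthiocarbamide, had 4.54, 1.98 and 1.3 RPKM in KO cTEC, against 0.329, 0.926 and 0.458 RPKM in WT cTEC. Tas2r125 had 2.01, 1.02 and 1.52 RPKM in KO cTEC, against 0.0611, 0.378 and 0.253 RPKM in WT cTEC. For both, KO cTEC replicate 1 was the highest library, by a wide margin for Tas2r138. The log2 fold changes were 1.93 ± 0.432 for Tas2r138 (adjusted p = 0.0049, limma) and 2.38 ± 0.414 for Tas2r125 (adjusted p = 0.00074, limma). Tas2r102 had 3.68, 2.92 and 1.68 RPKM in KO cTEC, against 0.34, 1.34 and 0.165 RPKM in WT cTEC. Tas2r136 had 2.35, 1.46 and 1.16 RPKM in KO cTEC, against 0.103, 0.835 and 0.163 RPKM in WT cTEC. Tas2r131 had 0.676, 0.105 and 0.431 RPKM in KO cTEC, against 0, 0.00323 and 0.0961 RPKM in WT cTEC. WT cTEC replicate 2 was the highest WT library for Tas2r102 and Tas2r136 but not for Tas2r131. The count was 11 without KO cTEC replicate 1 and 19 without WT cTEC replicate 2. It was 0 when only the 6 cTEC libraries were fitted, where the spread of cTEC alone set the error.

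In mTEChi few bitter receptors passed the test, at low levels in both genotypes. The fold change was negative for 29 of 33 members, and the ratio of mean RPKM was below 1 for 22 of the 23 members at 0.1 RPKM or more in both groups, with a median of 0.592. Among 33 members 2 were called lower and none higher, while over all genes tested 52.8% were called lower and 9.57% higher. With no adjustment, p was under 0.05 for 4 members, all lower, and in that direction for 55.2% of all genes. The median log2 fold change was -0.48 for the members and -0.39 for all genes. Tas2r108, with the values given above, fell by 1.28 ± 0.438 on the log2 scale (adjusted p = 0.018, limma). Tas2r107 had 0.264, 0.141 and 0.408 RPKM in KO mTEChi, against 0.958, 1.15 and 0.448 RPKM in WT mTEChi, close to touching. It fell by 1.34 ± 0.561 on the log2 scale (adjusted p = 0.048, limma). KO libraries lay below all WT libraries for 6 of 35 members, Tas2r107, Tas2r108, Tas2r124, Tas2r126, Tas2r135 and Tas2r137, and for 60.1% of all tested genes. The direction depended on the scaling. Centred on housekeeping genes, the median was -0.28 for all genes and -0.37 for the members, with 26 of 33 negative. Quantile normalization gives every library the same distribution, although 81.4% of genes were detected in every WT mTEChi library and 68.9% in every KO mTEChi library. Quantile normalization moved the median of all genes to 0.08 and that of the members to 0.79, with 32 of 33 positive and none called lower, and left Tas2r108 at -0.67. Without KO mTEChi replicate 1 or WT mTEChi replicate 2 no member was called, and without WT mTEChi replicate 3 or KO cTEC replicate 1 the count was 4. It was 1 without any of the KO mTEClo libraries, WT mTEClo replicate 1 or 3, or KO cTEC replicate 2, since all groups share the estimate of spread.

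The genotype effect itself was compared between populations. It was lower in mTEChi than in mTEClo for 12 members and lower in mTEChi than in cTEC for 16, with none higher in either. Over all genes tested 40.9% were called lower and 6.01% higher against mTEClo, and 44.8% lower and 5.13% higher against cTEC. Lower calls were thus about as common over all genes as among the members. Both comparisons use the same mTEChi libraries. Tas2r130 and Tas2r134, among the 12, pass the filter on low values through mTEClo only and averaged below 0.1 RPKM in mTEChi of either genotype. Their differences therefore rest on mTEClo. The largest called differences against mTEClo were those of Tas2r103 (-2.83 ± 0.806, SE, adjusted p = 0.0089, limma), Tas2r120 (-2.82 ± 0.912, adjusted p = 0.019, limma) and Tas2r107 (-2.72 ± 0.793, adjusted p = 0.01, limma). Tas2r103 had 0.16, 0.0136 and 0.0858 RPKM in KO mTEChi and 0.245, 0.674 and 0.156 RPKM in WT mTEChi. It had 5.3, 5.09 and 4.96 RPKM in KO mTEClo and 1.5, 1.83 and 1.49 RPKM in WT mTEClo. The KO libraries were low and just overlapped with WT in mTEChi, and were high and tightly grouped in mTEClo. Tas2r120 had 0.106, 0.131 and 0.261 RPKM in KO mTEChi and 0.51, 0.538 and 0.0435 RPKM in WT mTEChi. Its mTEClo levels and the mTEChi levels of Tas2r107 are given above. The largest against cTEC were those of Tas2r113 (-3.63 ± 0.776, adjusted p = 0.0011, limma), Tas2r105 (-3.52 ± 0.846, adjusted p = 0.0026, limma) and Tas2r108 (-3.39 ± 0.62, adjusted p = 0.00029, limma). Quantile normalization left 1 of the 12 and 2 of the 16 calls. The count of 12 was 5 with 0.01 RPKM added, 24 with 1 RPKM added and 21 with cTEC left out of the fit. It was 6 without WT mTEChi replicate 2, 7 without KO mTEChi replicate 1 or WT mTEClo replicate 3, and 19 without WT mTEClo replicate 2. Between mTEClo and cTEC no member was called different by limma, and over all genes 0.776% were called higher and 3.46% lower. With no adjustment, p was under 0.05 for 2 (Tas2r140 and Tas2r134, both with the larger effect in mTEClo), against 5.04% of all genes. Tas2r134 was at 0 in every cTEC library, and Tas2r140 averaged 0.0466 RPKM in KO cTEC and 0.0312 RPKM in WT cTEC. Both differences thus rest on mTEClo, since little change could show in cTEC.

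Within WT mice, mTEChi had less bitter receptor transcript than mTEClo. Of the 33 tested members 29 were called lower in WT mTEChi and none higher. Every mTEChi library lay below every mTEClo library for 31 of the 35. Over all genes tested 31.1% were called lower, 41.6% higher, and 34.4% lower with no overlap. The median log2 fold change was -1.92, and the ratio of mean RPKM for 27 members was 0.0913 (Tas2r138) to 0.498 (Tas2r135), with a median of 0.232. Tas2r138 had 0.351, 0.8 and 0.341 RPKM in WT mTEChi, against 4.85, 7.95 and 3.55 RPKM in WT mTEClo. It had the largest fall in the family, by 3.22 ± 0.432 on the log2 scale (SE, adjusted p = 5.4e-06, limma). Tas2r120, Tas2r135, Tas2r122 and Tas2r143 were tested and not called. Of the 33 tested members 28 pass the filter on low values without any mTEClo library. Tas2r122, Tas2r130, Tas2r134, Tas2r143 and Tas2r144 pass through mTEClo only, so for them a higher mTEClo level was built into the filter.

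The other pairs of populations gave the order of the levels. WT mTEClo was above WT cTEC for 31 of 33 members, as were 24.6% of all tested genes, with a median ratio of mean RPKM of 8.63 over 21 members. Tas2r105 differed most, by 4.37 ± 0.598 on the log2 scale (SE, adjusted p = 2.2e-05, limma), and Tas2r122 and Tas2r143 were not called. WT mTEChi was above WT cTEC for 7 members, Tas2r105, Tas2r108, Tas2r107, Tas2r125, Tas2r126, Tas2r113 and Tas2r137, against 46.6% of all tested genes. That count was 13 without WT cTEC replicate 2, 3 without WT cTEC replicate 1 and 0 under quantile normalization, which turned the median from 0.71 to -0.7. KO mTEChi was below KO mTEClo for 32 of 33, as were 43.7% of all tested genes, and Tas2r143 alone was not called. The median log2 fold change was -3.86, and the median ratio of mean RPKM over 23 members was 0.0539. KO mTEChi was below KO cTEC for 16 members, against 41.2% of all genes, and KO mTEClo was above KO cTEC for 32, against 19.3%. Tas2r122, Tas2r130, Tas2r134, Tas2r143 and Tas2r144 pass the filter on low values through mTEClo only. For these 5 a higher mTEClo level was built into the filter in each comparison with mTEClo. For the summed level the groups therefore ran from WT cTEC and both mTEChi groups, whose libraries overlapped, through KO cTEC and WT mTEClo, which overlapped with each other, to KO mTEClo, which overlapped with none.

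The members at the bottom of the range behaved differently or could not be resolved. Tas2r139 was at 0 in 15 of the 18 libraries and reached 0.178 RPKM in WT mTEChi replicate 3. Tas2r114 had 0.00471, 0.00998 and 0.0272 RPKM in KO mTEClo, against 0.0447, 0.0369 and 0.0384 RPKM in WT mTEClo, and was at 0 in the other 12 libraries. Both failed the filter and were not tested. Tas2r143, which lies next to Tas2r135 and Tas2r126, had 0.115, 0.0553 and 0.0896 RPKM in KO mTEClo, against 0.0281, 0.0397 and 0.0490 RPKM in WT mTEClo. Its highest library was KO cTEC replicate 2 with 0.137 RPKM, and it was called in no comparison. Together with Tas2r122, Tas2r135, Tas2r144 and Tas2r134 they stayed below 1 RPKM in every library.

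Most transducers of the bitter signal were, like the receptors, highest in KO mTEClo. Of 12 genes listed 10 were in the tables, all tested, and 6 had their highest mean in KO mTEClo: Gnat3, Gnb3, Gng13, Plcb2, Trpm5 and Calhm1. In KO cTEC against WT cTEC 5 were called higher, against 13.3% of all tested genes: Gnat3 (log2 fold change 2.22), Gnb3 (2.69), Gng13 (3.06), Plcb2 (2.12) and Trpm5 (2.69). Gnat3 had 56.5, 20.7 and 22.8 RPKM in KO cTEC, against 3.06, 14.9 and 5.54 RPKM in WT cTEC. Trpm5 had 141, 62.9 and 64.5 RPKM in KO cTEC, against 8.57, 23.7 and 10.2 RPKM in WT cTEC. Neither overlapped. In KO mTEClo against WT mTEClo the same 5 genes had log2 fold changes of 0.84 to 1.33, and none passed. Gng13, the gustducin gamma subunit, had 304, 335 and 334 RPKM in KO mTEClo, against 121, 197 and 89.3 RPKM in WT mTEClo, with no overlap (1.33 ± 0.455, SE, adjusted p = 0.058, limma). Itpr3, which other cells also use, was the only transducer called in mTEClo, with 16, 13.1 and 13.8 RPKM in KO against 10.2, 11 and 9.93 RPKM in WT (0.46 ± 0.0991, adjusted p = 0.0061, limma).

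In KO mTEChi against WT mTEChi, Plcb2, Itpr3, the ATP-release channel gene Calhm1, the ectonucleotidase gene Entpd2 and the phosphodiesterase gene Pde1a were called lower, 5 of 10 against 52.8% of all tested genes. Their log2 fold changes were -1.13, -0.62, -1.55, -0.76 and -0.96, and under quantile normalization those of Calhm1 and Pde1a turned positive, at 0.15 and 0.82. Gnat3 (-0.93), Gnb3 (-0.46), Gng13 (0.06), Trpm5 (-0.85) and the adenylyl cyclase gene Adcy8 (-0.38) were not called. Entpd2 was also lower in KO cTEC (-0.37, adjusted p = 0.028, limma). Tas1r3, the subunit shared by the sweet and the umami receptor, had 11.3, 12 and 13 RPKM in KO mTEClo, against 5.04, 6.64 and 3.84 RPKM in WT mTEClo. It rose by 1.24 ± 0.283 in KO mTEClo (SE, adjusted p = 0.008, limma) and by 1.87 ± 0.283 in KO cTEC (adjusted p = 0.00024, limma). Tas1r1, the umami subunit, had 3.2, 2.19 and 1.99 RPKM in KO mTEClo, against 1.1, 1.47 and 0.995 RPKM in WT mTEClo, and was not called (0.98, adjusted p = 0.075, limma). Tas1r2, the sweet subunit, had 0.0166, 0.0292 and 0.0321 RPKM in KO mTEChi, against 0.257, 0.273 and 0.256 RPKM in WT mTEChi. It was called lower there (-1.52 ± 0.144, adjusted p = 1.8e-07, limma) and higher in WT mTEChi than in WT mTEClo (1.41). Tas1r2 passes the filter on low values through WT mTEChi only, so that both calls were built into the filter, and quantile normalization put its change in KO mTEChi at 0.11. Of the 6 genes for receptor trafficking 5 were tested, and all 5 were lower in KO mTEChi, where 52.8% of all genes were. Rtp1 passes the filter through WT mTEChi only, and Rtp3 turned to 0.53 under quantile normalization. Rtp4, a receptor chaperone gene, had 1.59, 1.99 and 1.61 RPKM in KO mTEChi, against 13, 11 and 7.83 RPKM in WT mTEChi. Its means were higher elsewhere, at 61.1 RPKM in KO mTEClo, 90.3 RPKM in WT mTEClo, 58.7 RPKM in KO cTEC and 85.8 RPKM in WT cTEC. It fell in all 3 populations, by 2.53, 0.56 and 0.56 on the log2 scale (adjusted p = 4.8e-10, 0.015 and 0.012 in mTEChi, mTEClo and cTEC, limma).

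The summed markers of tuft cells differed between the groups in the same directions as the summed bitter receptors. Of 16 listed markers 15 were in the tables, and none was at 0 in all libraries of a group. Gnat3, Plcb2 and Trpm5 stand in both this list and that of the transducers. The 15 summed to 117 to 170 RPKM in KO mTEChi and 167 to 325 RPKM in WT mTEChi. They summed to 2020 to 2230 RPKM in KO mTEClo and 625 to 1430 RPKM in WT mTEClo, and to 542 to 1230 RPKM in KO cTEC and 73.5 to 214 RPKM in WT cTEC. The summed bitter receptors, none of which is in the tuft marker list, equalled 8.26% to 16.5% of the tuft marker sum in all 18 libraries. WT mTEChi replicate 2, WT mTEClo replicate 2, KO cTEC replicate 1 and WT cTEC replicate 2 were the highest of their groups in both sums. In KO mTEClo replicate 1 was the highest in bitter receptors (334 RPKM) and the lowest in tuft markers (2020 RPKM). By the test across all genes, 5 of the 15 markers were called higher in KO mTEClo, all 15 in KO cTEC, and 3 lower in KO mTEChi, against 7.93%, 13.3% and 52.8% of all tested genes. The 3 with the smallest adjusted p in mTEClo were Il25, Ptgs1 and Sucnr1. Il25, a cytokine of tuft cells, had 51.6, 68.2 and 53.7 RPKM in KO mTEClo, against 16, 25.4 and 14.3 RPKM in WT mTEClo. It rose by 1.67 (adjusted p = 0.0066, limma), and Pou2f3 rose by 1.12 (adjusted p = 0.029, limma) in the same comparison. Avil, the highest marker not called there, had a log2 fold change of 1.19. Not every marker went with the sum. Sucnr1 alone of the 15 was called higher in WT mTEChi (mean 1.22 RPKM) than in WT mTEClo (0.588 RPKM), as were 41.6% of all tested genes. The genotype effect in mTEClo minus that in cTEC had a median of -1.5 for the tuft markers and -0.23 for the bitter receptors. Of the 33 tested bitter receptors 16 were positive and 17 negative. Members near 0 RPKM in cTEC, such as Tas2r134 and Tas2r140, could show little change there. The 8 leading members had log2 fold changes of 0.95 to 1.74 in mTEClo and 2.11 to 3.11 in cTEC. The part of a changed number of tuft cells in the results above was not tested.

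**Figure D4:**
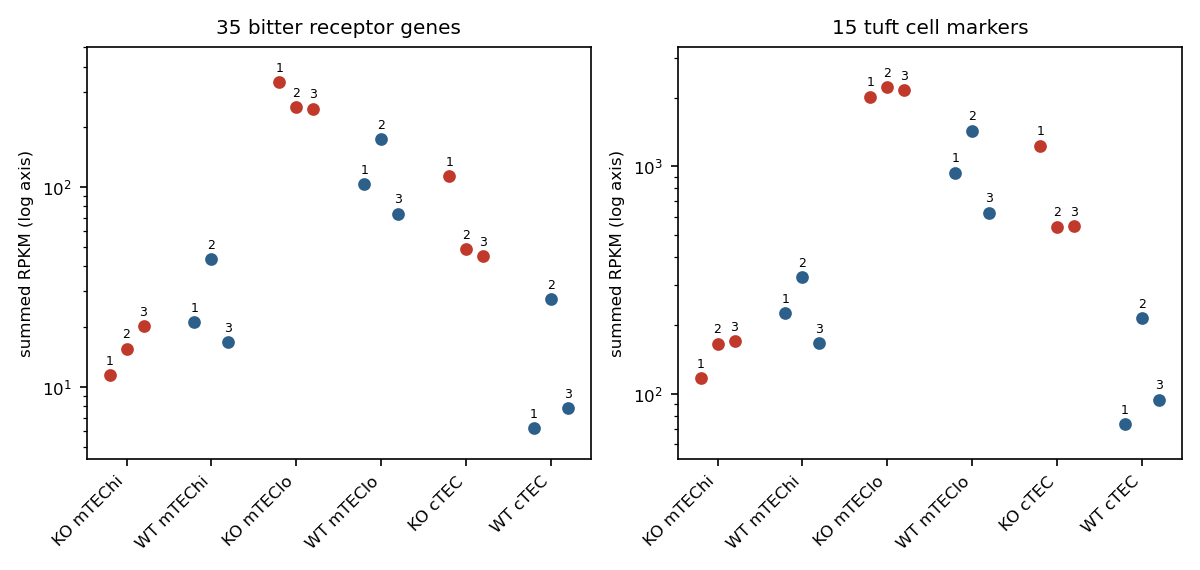
Summed RPKM of the 35 bitter receptor genes (left) and of 15 tuft cell markers (right) in each library (points, numbered by replicate; red for KO, blue for WT), on log axes. The groups stand in a like order in both panels, from WT cTEC (6.2 to 27.4 RPKM on the left) to KO mTEClo (246 to 334 RPKM), and KO mTEClo is separate from the other groups in both.

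Sums of other markers also differed between genotypes. Dendritic cell and macrophage markers summed to 69.4 to 138 RPKM in KO mTEClo, against 25.9 to 33.1 RPKM in WT mTEClo, and to 110 to 152 RPKM in KO cTEC, against 24.8 to 63.5 RPKM in WT cTEC. All 6 had a positive fold change in both populations and 2 were called in each, with Lyz2 (lysozyme) making up most of the sum. The mTEChi markers summed to 83.1 to 206 RPKM in KO cTEC, against 56.4 to 68.8 RPKM in WT cTEC, with 3 of 6 called higher. In mTEChi they summed to 1520 to 1650 RPKM in KO, against 1140 to 1170 RPKM in WT, which was mostly Aire itself (mean 1070 RPKM in KO and 677 RPKM in WT), and 1 of 6 was called. The mTEClo markers summed there to 224 to 245 RPKM in KO, against 509 to 657 RPKM in WT. Of the 5, 4 were called lower and 1 higher. Thymocyte markers there were at 11.6 to 22.8 RPKM in KO, against 30.6 to 54 RPKM in WT, with 4 of 8 called lower. B cell markers were at 2.93 to 3.61 RPKM in KO, against 5.36 to 6.67 RPKM in WT, with 2 of 3 lower. Those of cTEC were at 555 to 653 RPKM in KO, against 401 to 504 RPKM in WT, with 4 of 8 lower and 2 higher. Over all tested genes 52.8% were called lower in KO mTEChi. Endothelial markers summed to 5.6 to 12.8 RPKM in KO cTEC, against 1.71 to 4.51 RPKM in WT cTEC. Tek alone was higher there (6.73 RPKM in KO and 0.961 RPKM in WT), and the other 3 had negative fold changes. Thymocyte markers summed to 20.4 to 29 RPKM in KO cTEC, against 30.7 to 65.2 RPKM in WT cTEC, with all 8 negative and 1 called. The mTEClo markers, 5 of 6 in the tables, summed to 2210 to 2410 RPKM in KO mTEClo, against 2670 to 3310 RPKM in WT mTEClo, with all 5 negative and 2 called. The cTEC markers summed to 656 to 788 RPKM in KO mTEClo, against 880 to 960 RPKM in WT mTEClo, mostly Ctsl (596 RPKM in KO and 813 RPKM in WT), and none of the 8 was called. Sums of fibroblast markers, mostly Dcn (mean 316 RPKM in KO and 390 RPKM in WT), overlapped between genotypes in cTEC. All 4 had negative fold changes there and 2 were called lower. No listed marker of these types was at 0 in all libraries of a group, and their part in the bitter receptor results was not tested.

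Genes lying between bitter receptors were examined to see whether their levels followed. Inside the runs stand 19 other genes, of which 17 were tested. In KO mTEChi 13 were called lower and none higher, in KO mTEClo 1 was called higher and none lower, and in KO cTEC 3 were higher and 2 lower. Over all tested genes the shares were 52.8% lower in mTEChi, 7.93% higher in mTEClo, and 13.3% higher and 6.76% lower in cTEC. Of the 17, Fam131b, Gm4736, Prh1, Prpmp5 and Prss37 pass the filter on low values through WT mTEChi only, so for these 5 a lower level in KO mTEChi was built in. The 4 with the smallest adjusted p in mTEChi were the proline-rich protein gene Prh1, Prss37, Gm4736 and the ephrin receptor gene Epha1. Prh1, Prss37 and Epha1 fell by 2.05, 4.46 and 1.78 on the log2 scale, and Gm4736 was listed at 0 in every library outside WT mTEChi. Epha1 differed from its bitter receptor neighbours, with 1.78 ± 0.156 RPKM in KO mTEChi and 6.33 ± 0.281 RPKM in WT mTEChi, but 24.2 ± 5.44 RPKM in KO cTEC and 34.9 ± 4.31 RPKM in WT cTEC (SD, n = 3). It was lower in KO cTEC. A few neighbours, chosen after their values were seen, had their highest mean in KO mTEClo, as most bitter receptors had. The olfactory receptor gene Olfr461, between Tas2r108 and Tas2r138, averaged 1.56 ± 0.539 RPKM in KO mTEChi and 4.07 ± 0.989 RPKM in WT mTEChi. It averaged 23.2 ± 2.43 RPKM in KO mTEClo and 13.1 ± 5.18 RPKM in WT mTEClo, and 9.89 ± 5.2 RPKM in KO cTEC and 1.41 ± 0.894 RPKM in WT cTEC. It was lower in KO mTEChi (-1.36, adjusted p = 0.011, limma) and higher in KO cTEC (2.78, adjusted p = 0.00024, limma); Tas2r108 was at -1.28 and 2.11. A630073D07Rik, in the large run, averaged 68.9 ± 4.04 RPKM in KO mTEClo and 20.2 ± 8.3 RPKM in WT mTEClo. Its mean in KO cTEC, 30.2 ± 15.4 RPKM, was above that in WT mTEClo. In mTEChi it averaged 5.09 ± 0.937 RPKM in KO and 4.66 ± 1.8 RPKM in WT. The means of the summed bitter receptors ran the other way in both respects. A630073D07Rik was called higher in KO mTEClo (1.85, adjusted p = 0.012, limma) and in KO cTEC (3.67, adjusted p = 4.5e-05, limma). The proline-rich protein gene Prp2 was called in KO cTEC alone (1.59, adjusted p = 0.036, limma). Prss37 and Olfr460, in the same run as Olfr461, did not share its levels: Prss37 averaged 0.09 ± 0.0369 RPKM in KO mTEClo and 0.0543 ± 0.0652 RPKM in WT mTEClo, and Olfr460 averaged 0.402 ± 0.116 RPKM and 0.295 ± 0.191 RPKM in the same groups.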

How the data were processed

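RNA from 18 libraries was sequenced on an Illumina HiSeq 2000, per the labels, and the authors deposited 1 table per library with coordinates, symbol, RPKM and aligned bases for 23063 genes. The deposited RPKM are read numbers scaled by gene length and library size by the authors, and the deposited bases per gene are a coverage signal and not read counts. The build mm10 and CASAVA 1.8.2 come from the submitters' processing notes. For annotation, aligner settings, strand and read length nothing is stated in the labels or file headers.

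RPKM were used without rescaling. Genes at 0.1 RPKM or more in at least 3 of 18 libraries (19451) were fitted on log2(RPKM + 0.1) with limma 3.58.1 in R 4.3.3 (6 group means, all 18 libraries, eBayes with a trend), tested on simulated data first. A gene was called where p, adjusted by Benjamini-Hochberg over all tested genes, was under 0.05, in 12 comparisons. Fold changes on this scale understate changes of low genes. Of the 35 bitter receptor genes 33 were tested. No pair of tables held identical values. Runs join members less than 1 Mb apart.

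The bitter receptor genes, lists, comparisons and naming rule were chosen with earlier results of these data known. Per library values are given for the 8 members highest by mean, for members called in mTEClo or cTEC, and for the largest differences between genotype effects. All transducers and Tas1r genes are named, of other lists up to 3 by smallest adjusted p and the highest one not called, and of the neighbours 4. Pou2f3 and other neighbours were named after their values were seen. Olfactory, vomeronasal and trace amine receptors were not compared, since 97 of 1108, 12 of 312 and 5 of 15 passed the filter, 47, 5 and 5 of them through WT mTEChi only. Alternatives were pseudocounts of 0.01 and 1, other filters, quantile normalization, centring on housekeeping genes, only the groups compared, no trend, a replicate block and leaving out each library.

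Equal replicate numbers were checked for pairing by the correlation of deviations from group means, which ran from -0.3 to 0.21. All 3 correlations exceeded 0.1 in 1 of 15 pairs of groups, WT mTEClo with WT cTEC. There the block left the count of 31 as it was.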

Additional observations from a re-analysis of the deposited data

Results flagged for a closer look

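The genotype effect differed between populations, by limma's test of the difference itself over all tested genes, for the genes that follow. Values are the log2 genotype effect (KO minus WT) in the population named first minus that in the other. The 2 sets against mTEChi share the mTEChi libraries.

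Against mTEClo the effect in mTEChi was lower for 12 bitter receptors: Tas2r103 (-2.83), Tas2r120 (-2.82), Tas2r107 (-2.72), Tas2r125 (-2.38), Tas2r113 (-2.33), Tas2r109 (-2.3), Tas2r140 (-2.3), Tas2r108 (-2.23), Tas2r110 (-1.94), Tas2r131 (-1.88), Tas2r130 (-1.46) and Tas2r134 (-0.97). It was lower for the transducers Calhm1 (-2.71), Plcb2 (-1.97), Trpm5 (-1.91), Gnb3 (-1.66), Itpr3 (-1.08) and Entpd2 (-0.47), and for Tas1r2 (-1.5), Tas1r3 (-1.29) and Tas1r1 (-1.28). Over all tested genes 40.9% were called lower in this comparison, so such a call was not particular to the bitter receptors. Few of the bitter receptor calls held under quantile normalization. Tas1r2 passes the filter on low values through WT mTEChi only. Tas2r130 and Tas2r134 pass it through mTEClo only and averaged below 0.1 RPKM in mTEChi of either genotype, so their differences rest on mTEClo.

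Against cTEC the effect in mTEChi was lower for 16 bitter receptors: Tas2r113 (-3.63), Tas2r105 (-3.52), Tas2r108 (-3.39), Tas2r125 (-3.22), Tas2r137 (-3.19), Tas2r115 (-3.0), Tas2r109 (-2.99), Tas2r107 (-2.95), Tas2r117 (-2.84), Tas2r123 (-2.62), Tas2r103 (-2.6), Tas2r131 (-2.55), Tas2r136 (-2.5), Tas2r138 (-2.36), Tas2r102 (-2.24) and Tas2r110 (-1.91). It was lower for Trpm5 (-3.54), Plcb2 (-3.25), Gnat3 (-3.15), Gnb3 (-3.15), Gng13 (-3.0), Calhm1 (-1.8), Pde1a (-1.25) and Itpr3 (-0.54), and for Tas1r3 (-1.92) and Tas1r2 (-1.43). Over all tested genes 44.8% were called lower in this comparison, so here too such a call was not particular to the bitter receptors. Here too few of the bitter receptor calls held under quantile normalization, and Tas1r2 passes the filter through WT mTEChi only.

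Between mTEClo and cTEC the effect differed for Itpr3 alone among these genes, and was higher in mTEClo by 0.54.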

How the results depend on the processing

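With 3 libraries a group, several counts moved by over 1.5 times under another setting or without 1 library. The cause was not tested.

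The count of bitter receptors called lower in KO mTEChi (2) was 1 with 1 RPKM added, with no filter, centred on housekeeping genes, without the trend and with the replicate block, 0 under quantile normalization and 6 with only the groups compared. The count called in KO mTEClo (8) was 1 with 0.01 added, 23 with 1 added and 5 with no filter. The count called in KO cTEC (13) was 0 with only the groups compared. WT mTEChi above WT cTEC (7) was 3 with 1 added and 0 under quantile normalization. The genotype effect in mTEChi against mTEClo (12) was 5 with 0.01 added, 24 with 1 added, 1 under quantile normalization and 21 with only the groups compared; against cTEC (16) it was 2 under quantile normalization; mTEClo against cTEC (0) gave 2 with 1 added and 1 with no filter. At 0.5 RPKM, 9 members were detected in KO mTEChi, 8 in WT mTEChi and 2 in WT cTEC.

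Leaving out each library gave 0 to 4, 2 to 14 and 11 to 19 for KO against WT in mTEChi, mTEClo and cTEC, 3 to 13 for WT mTEChi above WT cTEC, and 6 to 19, 14 to 19 and 0 to 1 for the 3 differences between genotype effects. WT mTEChi below WT mTEClo ranged over 24 to 30, WT mTEClo above WT cTEC over 29 to 31, KO mTEChi below KO mTEClo stayed at 32, KO mTEChi below KO cTEC ranged over 12 to 18 and KO mTEClo above KO cTEC over 24 to 32. Detection ranged over 19 to 23 in KO mTEChi, 22 to 24 in WT mTEChi, 20 to 22 in KO cTEC and 12 to 17 in WT cTEC, and stayed at 32 in KO mTEClo and 31 in WT mTEClo.

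Under quantile normalization the change in KO mTEChi turned positive for Tas2r107 (0.34), Tas2r117 (0.60), Tas2r113 (0.14), Tas2r115 (0.78), Tas2r109 (0.80), Tas2r105 (0.23), Tas2r137 (0.65), Calhm1 (0.15), Pde1a (0.82), Rtp3 (0.53) and Tas1r2 (0.11), and the difference between mTEChi and cTEC for Tas2r110 (0.36). Leaving out 1 library moved Tas2r115 in KO mTEChi over -1.01 to 0.07, positive only without WT mTEChi replicate 2. Of 117 gene values 34 kept direction and call under every alternative and 68 lost the call under at least 1.

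Apart from WT mTEClo with WT cTEC, equal replicate numbers did not deviate together, so the replicate block is no paired analysis; it moved only the count in KO mTEChi, to 1, beyond 1.5 times.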
